A study of Mus musculus with 4 samples.

Results

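Long noncoding RNA genes of 3 kinds were followed through retinal differentiation of mouse embryonic stem cells: the Platr genes, the Snhg genes, and a set of 9 genes fixed by name (Rmst, Sox2ot, Pantr1, Miat, Malat1, Neat1, Gas5, Six3os1 and Dlx6os1). Members were the symbols of these kinds in the platform annotation that had a probe set naming exactly 1 gene, with the probe set of the highest mean over the arrays kept for each gene. The rule found 36 members among 22180 measured genes: 14 Platr genes, 15 Snhg genes and 7 of the genes fixed by name. A further 5 symbols (Gas5, Sox2ot, Platr9, Snhg8 and Snhg16) were named only by probe sets shared with another gene and were not analysed here.

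The data came from 4 Affymetrix arrays, 2 of aggregates collected at day 4 and 2 at day 7 of retinal differentiation in matrigel-containing medium. All were wild type and grown from 1 embryonic stem cell line, an EB5 derivative of 129/Ola origin with GFP knocked in at the Rx (Rax) promoter, a reporter of the eye field. The series title concerns R-spondin 2 in optic vesicle and neuroretina formation, and its design sets the 2 days against each other. Values are the deposited log2 signals, so that a difference of 1 is 2-fold. Whether the replicates of a day were separate cultures is not in the labels, so the p-values reflect how far these 4 samples scatter, and that scatter may be technical.

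Platr genes are pluripotency-associated transcripts, long noncoding RNAs first listed in mouse embryonic stem cells because their levels follow the pluripotent state. Snhg genes are hosts of small nucleolar RNAs, which are cut from their introns and guide the modification of ribosomal RNA, while the spliced host RNA usually encodes no protein. The genes fixed by name are mostly neural or nuclear: Rmst RNA works with Sox2 in neurogenesis, Pantr1 and Six3os1 lie beside the neural transcription factor genes Pou3f3 and Six3, and Malat1 and Neat1 RNAs belong to nuclear speckles and paraspeckles.

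Platr and Snhg genes stood lower at day 7 or were not called, and the genes that rose were all in the set fixed by name. With limma, 11 of 36 members fell and 3 rose at a Benjamini-Hochberg adjusted p under 0.05, against 4.33% of all genes called lower and 6.15% called higher (10.5% in either direction). The 11 that fell were 7 of 14 Platr genes (50%) and 4 of 15 Snhg genes (26.7%), and 0 genes of either family rose (0 Platr genes and 1 Snhg gene, Snhg18, were higher at an unadjusted p under 0.05). The 3 that rose were Rmst, Pantr1 and Six3os1. With day 7 replicate 1 omitted 3 members were called lower, all among the 11, and 887 of all genes were called in place of 2324. With day 7 replicate 2 omitted 6 members were called lower, 5 of the 11 and Neat1, and 994 of all genes were called. Omitting day 4 replicate 1 gave 9 members, all among the 11, and 1964 of all genes. Omitting day 4 replicate 2 gave 11 members, 9 of the 11 with Platr8 and Snhg3, and 2500 of all genes. In the same order of arrays, 2, 4, 6 and 8 Platr genes and 1, 1, 3 and 3 Snhg genes were called lower.

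The median difference between days, day 7 minus day 4, was -0.78 log2 over the Platr genes and -0.32 over the Snhg genes, against 0.00 over all 22180 genes. Both day 7 values lay below both day 4 values for 22 of 36 members and above them for 7, where 25.1% of all genes lay below and 25.6% above (50.8% in either direction). In 10 of 14 Platr genes and 12 of 15 Snhg genes the day 7 mean was the lower one. The cumulative plot of differences shows both families to the left of all genes over the negative range.

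**Figure D1:**
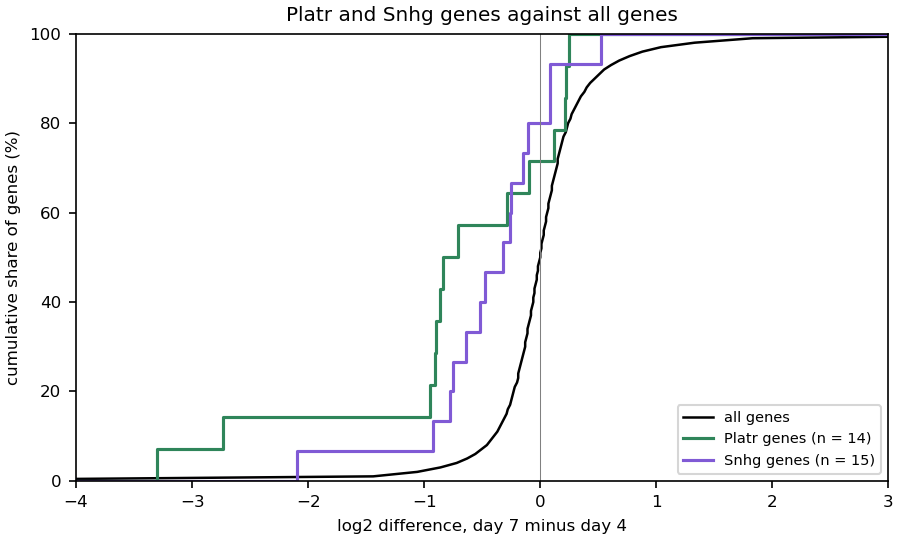
Cumulative share of genes (%, vertical axis) by log2 difference, day 7 minus day 4 (horizontal axis), for the 14 Platr genes, the 15 Snhg genes and all 22180 genes. The medians are -0.78, -0.32 and 0.00.

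The sequences around the starts of the Platr genes that fell furthest, and of the gene of the rising set that has an entry, are shown to place them in the genome. They are RefSeq windows of assembly GRCm38.p6, 250 bases before to 50 bases after the annotated start, given on the gene's own strand, with the bases from the start onwards in capitals. The window of Platr10 is chr3:75655682-75655981 (minus strand), that of Platr22 chr1:136695961-136696260 (plus strand) and that of Six3os1 chr17:85618347-85618646 (minus strand).
Platr10: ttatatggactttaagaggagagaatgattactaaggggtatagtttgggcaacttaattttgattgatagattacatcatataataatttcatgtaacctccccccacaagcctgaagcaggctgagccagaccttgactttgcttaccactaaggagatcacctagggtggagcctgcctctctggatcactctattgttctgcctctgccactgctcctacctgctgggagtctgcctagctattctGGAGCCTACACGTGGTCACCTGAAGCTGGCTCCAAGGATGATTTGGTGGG
Platr22: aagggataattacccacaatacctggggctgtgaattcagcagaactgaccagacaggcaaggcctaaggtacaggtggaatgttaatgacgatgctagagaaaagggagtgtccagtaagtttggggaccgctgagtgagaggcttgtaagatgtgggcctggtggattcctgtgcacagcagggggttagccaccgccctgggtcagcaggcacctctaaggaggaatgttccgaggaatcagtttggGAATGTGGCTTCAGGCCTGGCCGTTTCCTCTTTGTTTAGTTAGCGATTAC
Six3os1: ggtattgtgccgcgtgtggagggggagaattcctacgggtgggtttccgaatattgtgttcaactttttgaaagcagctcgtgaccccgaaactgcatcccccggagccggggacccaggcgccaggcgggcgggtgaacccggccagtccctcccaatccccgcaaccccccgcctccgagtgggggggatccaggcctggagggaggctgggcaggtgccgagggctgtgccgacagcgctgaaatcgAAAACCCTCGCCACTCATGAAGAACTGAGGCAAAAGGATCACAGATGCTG

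RefSeq windows were found for 28 of the 36 members, 32 windows in all. The Platr windows had a median GC content of 49%, between 39% and 52%, and a median of 4 CpG pairs. Those of the Snhg genes had a median GC content of 58.3%, between 45% and 75.3%, and a median of 23 CpG pairs, against 52.7% and 7 over 32851 windows of all genes. Among the Snhg windows, Snhg14 had the lowest GC content (45%) and the fewest CpG pairs (2). Platr10 had 1 CpG pair, Platr22 had 6 and Six3os1 had 20. These are descriptions of the annotated windows, and no test was made on them.

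The octamer ATGCAAAT, the sequence bound by Oct factors such as the pluripotency factor Oct4, was searched on both strands. It was present in 1 of 13 Platr windows, in 0 of 14 Snhg windows and in 1.74% of all windows. The match lay in 1 of the 2 windows of Platr21, at chrX:139357814-139357853 (minus strand), where the capitals mark the octamer on the opposite strand.
Platr21: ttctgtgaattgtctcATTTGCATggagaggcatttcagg
The Sox motif ACAATGG was present in 1 Platr window (Platr14), 1 Snhg window (Snhg7) and 3.66% of all windows.

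Platr10 had the largest fall of all members. Its log2 signal was 10.70 and 10.06 in day 4 replicates 1 and 2 and 7.00 and 7.17 in day 7 replicates 1 and 2. The days were far apart and the day 4 replicates differed more than those of day 7. Its mean fell from 10.38 ± 0.45 to 7.08 ± 0.12 (SD, n = 2 per day), a 9.84-fold fall (log2 difference -3.30, 95% confidence interval -3.82 to -2.77, adjusted p = 0.000307). Platr22 had signals of 8.95 and 8.88 at day 4, then 6.04 and 6.33 at day 7. Its replicates lay close together on both days, and it fell 6.63-fold (log2 difference -2.73, interval -3.10 to -2.36, adjusted p = 0.000162). Both were called under each alternative apart from the fit without a variance prior, in which 3 genes of all 22180 passed.

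The other Platr genes that fell did so by less than 2-fold. Platr14, whose RNA is studied for its effect on the differentiation of embryonic stem cells, read 8.36 and 8.23 at day 4 and 7.22 and 7.46 at day 7. It fell 1.94-fold (log2 difference -0.95, SE 0.153, adjusted p = 0.00908). Platr4 read 6.63 and 6.56 against 5.62 and 5.76, a 1.88-fold fall (adjusted p = 0.00809). For both genes the gap between days was several times the gap between replicates. Platr27 read 6.99 and 6.84 at day 4 and 6.04 and 6.08 at day 7 (1.81-fold lower, adjusted p = 0.0101). Platr7 read 5.91 and 5.84 against 4.88 and 5.20 (1.79-fold lower, adjusted p = 0.0182). Platr21 read 6.21 and 5.93 against 4.87 and 5.47 (1.86-fold lower, adjusted p = 0.0467), with its day 7 replicates 0.60 log2 apart.

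Several of these smaller calls were lost when 1 array was left out, mostly a day 7 array. Without day 7 replicate 1 the adjusted p was 0.0945 for Platr14, 0.0879 for Platr4, 0.0953 for Platr27, 0.154 for Platr7 and 0.256 for Platr21. Without day 7 replicate 2 it was 0.0532 for Platr4, 0.079 for Platr27 and 0.0507 for Platr7. Platr21 also had 0.129 without day 4 replicate 1.

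The remaining 7 Platr genes were not called, and their differences ran from -0.71 to 0.25 log2. Platr8 read 5.02 and 4.47 at day 4 and 3.87 and 4.20 at day 7. Its days did not overlap, but the difference of -0.71 had an adjusted p = 0.0911, and its mean signal was below 4.60, the 25th percentile of all genes, where array background shrinks differences. Platr20 had a difference of -0.29 (interval -0.62 to 0.04) and Platr30 one of -0.10 (interval -0.50 to 0.30). Differences above 0 were those of Platr5 (0.12), Platr6 (0.21), Platr26 (0.22) and Platr25 (0.25), and each interval of these 4 included 0. The intervals of these 4 reached at most 0.67 and at least -0.22. The family was thus split between 7 genes with a fall of at least 0.84 log2 and 7 with no call.

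**Figure D2:**
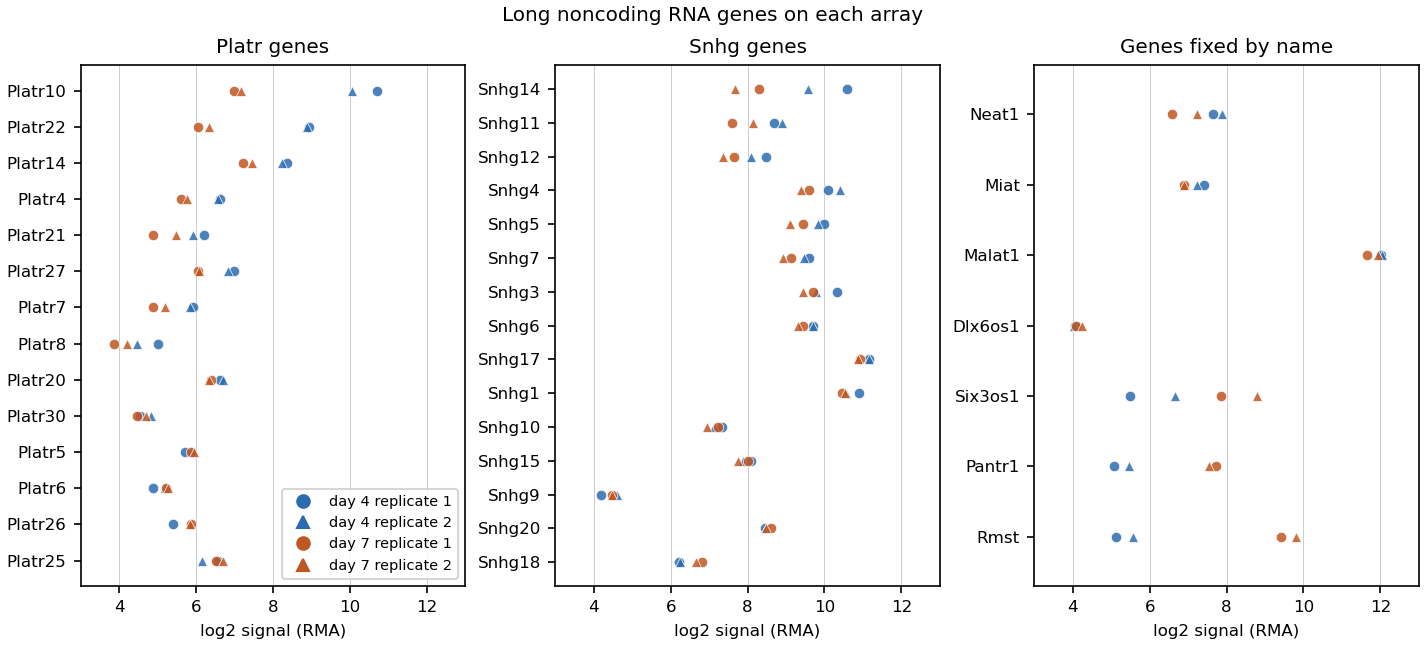
Log2 signal (RMA, horizontal axis) of each member on each of the 4 arrays, with blue for day 4, orange for day 7, circles for replicate 1 and triangles for replicate 2. Platr10 and Rmst show the widest gaps between days, with means of 10.38 and 7.08 for Platr10 and 5.35 and 9.61 for Rmst.

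Among the Snhg genes, Snhg14 had the largest fall. This gene gives the long imprinted RNA of the Prader-Willi and Angelman region, host of large arrays of box C/D small nucleolar RNAs and antisense to Ube3a. It read 10.58 and 9.57 at day 4 and 8.30 and 7.66 at day 7. The days did not overlap, and replicate 2 was lower than replicate 1 on both. The mean fell 4.27-fold, from 10.08 ± 0.72 to 7.98 ± 0.45 (SD, n = 2, log2 difference -2.10, interval -2.91 to -1.28, adjusted p = 0.0101, and 0.0741 without day 7 replicate 2). Of its neighbours, Ube3a stood at 9.66 and 9.43 at day 4 and 9.49 and 9.48 at day 7 (adjusted p = 0.886). Ndn, an imprinted gene of the same region, rose 3-fold (log2 difference 1.58, adjusted p = 0.00161).

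The other Snhg genes that fell were Snhg11, Snhg12 and Snhg4. Snhg11, a gene known for expression in brain, read 8.68 and 8.89 at day 4 and 7.59 and 8.13 at day 7. It fell 1.89-fold (log2 difference -0.92, interval -1.41 to -0.44, adjusted p = 0.0316). Its second probe set gave a difference of -0.89 (adjusted p = 0.107 in the fit on every probe set, where the first had 0.11). Snhg12 read 8.47 and 8.09 against 7.65 and 7.35, a 1.72-fold fall (adjusted p = 0.0431). Snhg4 read 10.09 and 10.40 against 9.59 and 9.39, a 1.69-fold fall (adjusted p = 0.0319). The days did not overlap for any of these 3 genes, yet each of their calls was lost when certain arrays were left out. The adjusted p of Snhg11 rose to 0.0761 with day 4 replicate 2 left out and to 0.193 with day 7 replicate 1 left out. For Snhg12 it was 0.124 when day 4 replicate 1 was omitted, and 0.109 and 0.265 when either day 7 array was. For Snhg4 it was 0.0813 when day 4 replicate 2 was omitted, and 0.121 and 0.217 when either day 7 array was.

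Of the 11 Snhg genes that were not called, 8 had a lower day 7 mean and 6 had days that did not overlap in that direction. Over all genes the days did not overlap in that direction for 25.1%. Snhg5 (9.99 and 9.84 at day 4, 9.44 and 9.11 at day 7) had a difference of -0.64 and an adjusted p = 0.0556, which ran from 0.0109 to 0.335 over the alternatives. Snhg7 (9.60 and 9.48, then 9.13 and 8.91) had one of -0.52 and an adjusted p = 0.0817, from 0.0254 to 0.422. These intervals, -1.03 to -0.25 and -0.87 to -0.16, did not include 0, so a modest difference in either gene could not be settled with 4 arrays. Snhg3 (-0.48), Snhg6 (-0.32), Snhg17 (-0.26) and Snhg1 (-0.25) followed, each with an interval that included 0. Snhg10 (-0.15), Snhg15 (-0.11), Snhg9 (0.08) and Snhg20 (0.08) had overlapping days.

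Snhg18 was the only Snhg gene whose day 7 values both lay above day 4. It read 6.22 and 6.23 at day 4 and 6.82 and 6.66 at day 7, a difference of 0.52 (interval 0.18 to 0.85, adjusted p = 0.0668, from 0.0272 to 0.373 over the alternatives). It passed with quantile normalization (adjusted p = 0.0481) and among genes above the median level (0.0272).

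**Figure D3:**
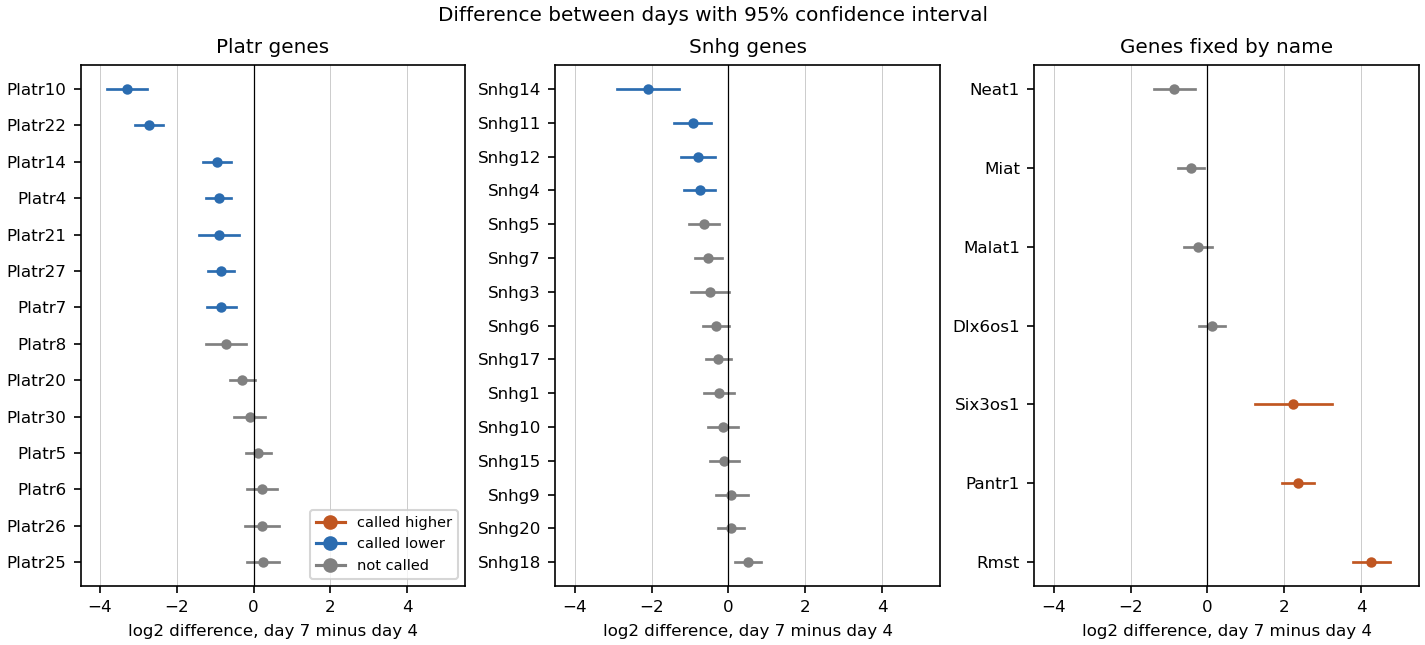
Log2 difference, day 7 minus day 4 (horizontal axis), of each member with limma's 95% confidence interval, coloured by call at an adjusted p under 0.05. The 11 genes called lower are Platr and Snhg genes, and the 3 called higher are Six3os1, Pantr1 and Rmst.

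The replicates of day 7 differed in opposite ways in the 2 families. In day 7 replicate 2, 12 of 14 Platr genes stood higher than in replicate 1 (median 0.17 log2), while 12 of 15 Snhg genes stood lower (median -0.20). At day 4, replicate 2 was the lower one for 9 of 14 Platr genes (median -0.07) and 9 of 15 Snhg genes (median -0.12). Over all genes, replicate 1 minus replicate 2 had a median of -0.01 at day 4 and 0.014 at day 7. The widest day 7 gap between replicates was 0.60 among Platr genes (Platr21, which fell by 0.90) and 0.64 among Snhg genes (Snhg14, which fell by 2.10).

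The small RNA genes inside the members were read next, since an Snhg host and its small nucleolar RNAs come from 1 primary transcript. These genes, microRNA genes among them, were taken by position within a member, and their strand was not compared with that of the member. RefSeq places 239 such genes within 17 of the 36 members, 207 of them within Snhg14, and 15 within 10 members had a value here. Of these 15, 4 fell and 11 were not called (4.33% of all genes were called lower), with a median difference of -0.30. The sources used here do not say whether these probe sets read the mature small RNA or its precursor.

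Snhg14 and Snhg4 fell together with the small RNA genes measured inside them. These were 1 of 207 within Snhg14 and 2 of 2 within Snhg4. Gm26504, a small nucleolar RNA gene within Snhg14, read 10.92 and 10.02 at day 4 and 9.44 and 8.68 at day 7, and fell 2.66-fold (adjusted p = 0.0434). Its replicates were ordered as those of Snhg14 on both days, with replicate 1 higher. Within Snhg4, Snora74a, an H/ACA RNA gene, read 9.72 and 9.58 against 8.60 and 8.71 and fell 1.99-fold (adjusted p = 0.00589). Mir1949, whose days did not overlap, had means of 10.71 ± 0.22 and 9.83 ± 0.24 (SD, n = 2 per day) and fell 1.84-fold (adjusted p = 0.0249).

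At Snhg9 and Snhg12, host and small RNA genes were not called alike. Snora78, within Snhg9, read 8.97 and 8.57 at day 4 and 8.12 and 7.82 at day 7, a 1.73-fold fall (adjusted p = 0.0414). Its host read 4.19 and 4.60 against 4.48 and 4.48, below the 25th percentile of all genes in mean signal, where a change would be hard to measure. Snhg12 fell, while its 4 small nucleolar RNA genes were not called: Snora16a (-0.37), Snora61 (-0.42), Snord99 (-0.25) and Snora44 (0.11). Both day 7 values of Snora61 and Snora16a lay below day 4, and the interval of Snora61, -0.75 to -0.09, overlapped that of its host, -1.23 to -0.34. Whether a host and its small RNA differed from each other in their change was not tested. With day 4 replicate 1 or day 7 replicate 2 left out, Snora74a alone of these 15 was called, and with day 7 replicate 1 left out 0 were. All 4 calls held with day 4 replicate 2 left out.

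**Figure D4:**
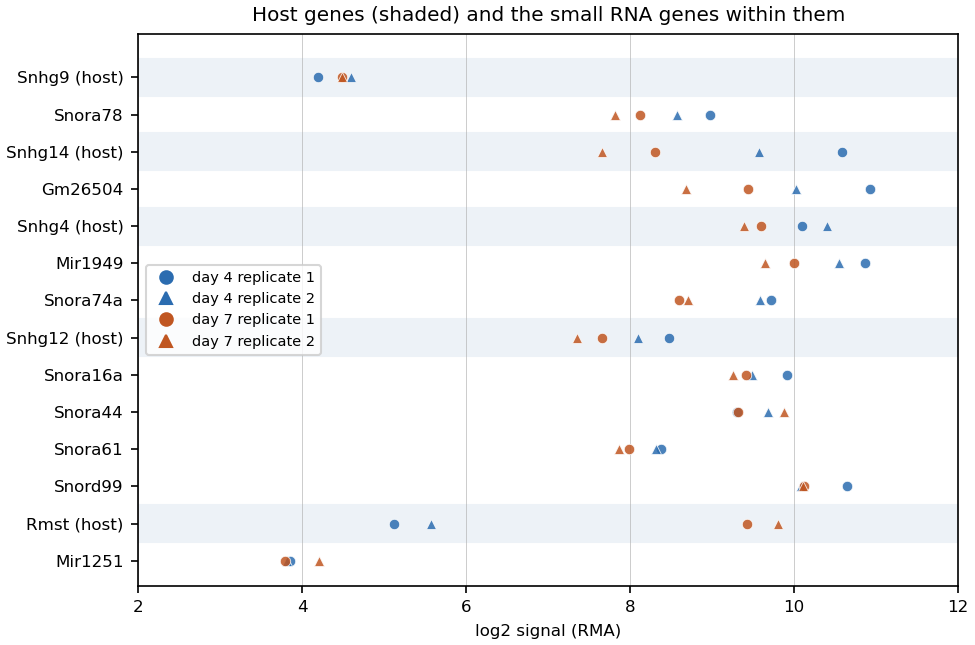
Log2 signal (RMA, horizontal axis) on each array of 5 host genes (shaded rows) and the small RNA genes that RefSeq places within them, with colours and symbols by day and replicate. Gm26504 and Snora74a fell with their hosts Snhg14 and Snhg4, and Mir1251 stayed between 3.79 and 4.20 while its host Rmst rose.

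Spliced Snhg RNAs often begin with a pyrimidine tract like that of terminal oligopyrimidine (TOP) mRNAs, which encode ribosomal proteins and translation factors and start at a C followed by pyrimidines. A start at C with at least 4 pyrimidines after it was annotated for 1 of 14 Snhg windows (7.14%), 14 of 72 TOP list windows (19.4%) and 2.51% of all windows. The TOP list took ribosomal protein genes by the form of their symbols, with further genes by name. With the run allowed to begin up to 5 bases either side of the annotated start, the shares were 42.9% (6 of 14), 40.3% and 18.3%. Windows of 3 of these genes are printed to show such runs, 10 bases before to 20 bases from the annotated start with the run in capitals: a host that fell (Snhg12, chr4:132308668-132308697, plus strand) and 2 that were not called (Snhg7, chr2:26640225-26640254, and Snhg18, chr15:32244643-32244672, both minus strand).
Snhg12: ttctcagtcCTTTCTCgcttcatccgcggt
Snhg7: gatgctcggcCTCTCggcagccatggcggc
Snhg18: cccaggcccCTCCTCTagccccgcctcttc
The other windows with such a run were those of Snhg3, Snhg9 and Snhg10. The Snhg14 window had none, which says only that these letters are not in it.

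Genes of the pathways around the Snhg RNAs were read from fixed lists. Of 83 measured genes of the TOP list, 2 fell and 0 rose (2.41% lower, against 4.33% lower and 6.15% higher over all genes). At an unadjusted p under 0.05 in limma 8 were lower and 2 higher. The day 7 mean was the lower one for 65 of the 83, and the median difference was -0.08. Days did not overlap for 34 lower and 3 higher, against 25.1% lower and 25.6% higher over all genes. Of the genes called, Rps4l, which the list took by its symbol, fell 2.28-fold (limma adjusted p = 0.00803). Rpl37a, a ribosomal protein gene, fell 1.88-fold (limma adjusted p = 0.0281). The number that fell was 4 with day 4 replicate 2 left out and 1 with any other array left out. Among 17 genes of the proteins that bind small nucleolar RNAs or assemble them, 0 were called by limma in either direction. At an unadjusted p under 0.05 in limma 0 were higher and 4 lower. The day 7 mean was lower for 15 of the 17 (median -0.26). Both day 7 values lay below both day 4 values for 9 of the 17, against 25.1% of all genes. The largest difference was that of Nhp2, a core protein of H/ACA particles, at -0.57 (interval -0.99 to -0.15, adjusted p = 0.0982). Of 9 factors of nonsense-mediated decay, the pathway that degrades many spliced Snhg RNAs, 0 were called by limma (0 also at an unadjusted p under 0.05), with a median of -0.05 and the largest difference at Smg6 (0.29, adjusted p = 0.314).

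Rmst had the largest rise of all members. Its signal was 5.12 and 5.57 at day 4 and 9.42 and 9.80 at day 7. All day 7 values were far above day 4, and the mean rose 19.2-fold, from 5.35 ± 0.31 to 9.61 ± 0.26 (SD, n = 2, log2 difference 4.26, interval 3.78 to 4.75, adjusted p = 9.78e-05). A second Rmst probe set read 5.47 and 5.46 against 6.46 and 6.90, a smaller difference of 1.22 (2.32-fold, adjusted p = 0.0381 in the fit on every probe set). Both probe sets were higher at day 7, by different amounts. Nedd1, a centrosome gene beside Rmst, stood at 7.85 and 7.84, then 8.23 and 8.06 (difference 0.30, adjusted p = 0.276).

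RefSeq places the microRNA gene Mir1251 within Rmst. Its probe set read 3.85 and 3.81 at day 4 and 3.79 and 4.20 at day 7 (difference 0.16, adjusted p = 0.68), below the 25th percentile of all genes on every array. Its mature sequences (RefSeq, GRCm38.p6, minus strand of chr10) are shown with the seed, bases 2 to 8, in capitals.
mmu-miR-1251-5p: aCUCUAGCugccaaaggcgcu
mmu-miR-1251-3p: cGCUUUGCucagccaguguag
The arms have different seeds. The host rose while the probe set of the microRNA gene was not called.

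Pantr1, a noncoding RNA gene beside Pou3f3, read 5.06 and 5.46 at day 4 and 7.72 and 7.53 at day 7. It rose 5.13-fold, from 5.26 ± 0.28 to 7.62 ± 0.13 (SD, n = 2, log2 difference 2.36, interval 1.94 to 2.78, adjusted p = 0.000505). Pou3f3 (Brn1), a POU factor of cortical progenitors and upper-layer neurons, read 4.75 and 5.52 against 8.69 and 8.59 and rose 11.3-fold (adjusted p = 0.000361). Both genes of this pair were low in both day 4 arrays and high in both day 7 arrays. Their calls held without any 1 of the 4 arrays.

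Six3os1 overlaps Six3, an eye field and forebrain factor, in RefSeq. It read 5.49 and 6.66 at day 4 and 7.85 and 8.79 at day 7, with replicate 2 higher on both days. The mean rose 4.73-fold, from 6.08 ± 0.83 to 8.32 ± 0.66 (SD, n = 2, log2 difference 2.24, interval 1.25 to 3.24, adjusted p = 0.0168). Omitting day 4 replicate 1 gave a 3.15-fold rise and omitting day 4 replicate 2 a 7.09-fold one. With day 7 replicate 2 omitted the adjusted p was 0.101. Six3 itself read 6.49 and 8.38 against 7.54 and 8.06, with overlapping days (difference 0.36, interval -0.91 to 1.63, adjusted p = 0.786). Its day 4 replicate 1 lay below both day 7 values and its day 4 replicate 2 above both. The direction of any change in Six3 thus depended on which day 4 array was read. Whether Six3os1 and Six3 differed in their change was not tested. Six2, which neighbours Six3, had a difference of 1.06 (adjusted p = 0.053). The sources used here do not give the strand of the probes, so signal from overlapping RNAs of opposite strands could not be told apart.

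Dlx6os1, also called Evf2, is a ventral forebrain RNA gene that overlaps Dlx6. It read 4.05 and 4.03 at day 4 and 4.07 and 4.25 at day 7 (difference 0.12, interval -0.22 to 0.46, adjusted p = 0.717), below the 25th percentile of all genes on all arrays. Dlx6 (difference -0.15) and Dlx5 (-0.76, adjusted p = 0.13) were not called. Sox2, which lies inside the unmeasured Sox2ot, stood at 11.33 and 11.43, then 11.58 and 11.61 (adjusted p = 0.443).

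**Figure D5:**
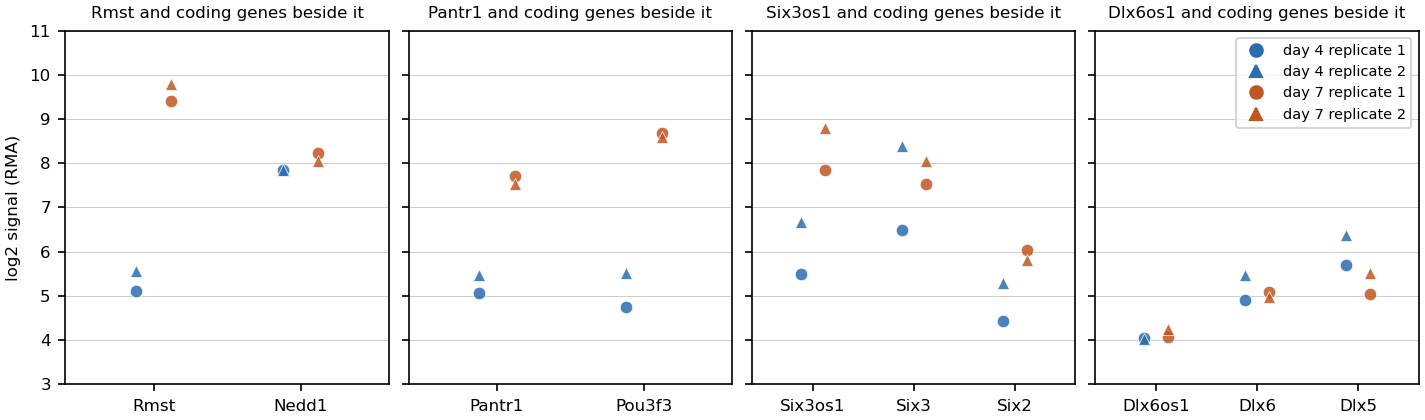
Log2 signal (RMA, vertical axis) of 4 noncoding RNA genes and the coding genes beside or overlapping them on each array, with blue for day 4, orange for day 7, circles for replicate 1 and triangles for replicate 2. Pantr1 and Pou3f3 rose together (5.13-fold and 11.3-fold), while Nedd1 beside Rmst and Six3 beside Six3os1 were not called. The day 4 values of Six3 lay on either side of both its day 7 values.

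The nuclear RNA genes of the set were not called. Neat1, whose RNA is the scaffold of paraspeckles, read 7.65 and 7.87 at day 4 and 6.57 and 7.23 at day 7. Its days did not overlap, and the difference of -0.86 (interval -1.40 to -0.32) had an adjusted p = 0.0613, which ran from 0.0204 to 0.305 over the alternatives and passed in 6 of them. Malat1, the RNA of nuclear speckles, read 12.03 and 12.05 against 11.66 and 11.95 (difference -0.24, interval -0.60 to 0.13, adjusted p = 0.455). A second Malat1 probe set gave 9.93 and 9.79 at day 4 and 9.19 on both day 7 arrays, a difference of -0.67. In the fit on every probe set neither was called (adjusted p = 0.0879 for the second and 0.596 for the first), while the second had an adjusted p of 0.0261 in the fit on the probe set of lowest mean for each gene. Miat (Gomafu), known from retinal precursors, read 7.40 and 7.22 against 6.88 and 6.89, a difference of -0.42 (interval -0.76 to -0.09, adjusted p = 0.125).

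Of 16 genes of paraspeckle proteins, 0 were called by limma (0 also at an unadjusted p under 0.05), against 10.5% of all genes in either direction. Their median was 0.05, with the largest difference at Fam98a (-0.33, limma adjusted p = 0.411). Among 18 genes of nuclear speckle, SR and other splicing proteins, 1 rose and 0 fell (5.56% higher, against 6.15% of all genes). That gene was Qk, an RNA-binding regulator of splicing, at 1.49-fold (adjusted p = 0.0477), and its call was lost when any 1 array was left out. Mn1, the coding gene before Miat in gene order, rose 2.92-fold (adjusted p = 0.00187).

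Over the whole set, each member was read against the nearest measured coding gene on either side in RefSeq gene order, 72 pairs with 68 different genes. Of these 68 neighbours 5 rose and 1 fell (7.35% and 1.47%, against 6.15% and 4.33% of all genes). The 5 that rose were Pou3f3, Ndn, Mn1, Golim4 beside Platr10 (1.95-fold, adjusted p = 0.00709) and Nnat, an imprinted gene beside Platr27 (1.87-fold, adjusted p = 0.00743). Tcf24 beside Snhg6 fell 1.58-fold (adjusted p = 0.0416). Member and neighbour were both called in 4 pairs, and in 1 of these, Pantr1 with Pou3f3, the direction was the same. The neighbours of Platr22, the pluripotency regulator genes Zfp281 and Nr5a2, had differences of -0.50 (adjusted p = 0.0727) and 0.32 (adjusted p = 0.241). The number of called neighbours was 11 with day 4 replicate 2 left out, and 3 with either day 7 array left out, when Golim4 and Nnat lost their calls. Tcf24 lost its call when any 1 array was left out.

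Markers of the cell states moved between the days as well, where 4.33% of all genes were called lower and 6.15% higher. In core pluripotency genes 9 of 23 fell and 0 rose, with L1td1 at 5.93-fold, Utf1 at 5.86-fold and Tdgf1 at 3.65-fold. The other 14 were not called, among them Nanog, Klf5 and Zfp42. Both day 7 values lay above both day 4 values for 5 of the 23, such as Klf4, and below them for 13. Over all genes these shares were 25.6% and 25.1%. The mean log2 level of the list lay between 8.57 and 8.72 at day 4 and between 7.92 and 8.15 at day 7. In primed epiblast genes 11 of 18 fell and 1, Sox3, rose, and the list level lay between 9.04 and 9.16 at day 4 and between 7.80 and 7.91 at day 7. In neural progenitor genes 16 of 18 rose, led by Zic1 (25.3-fold), and the list level lay between 8.10 and 8.33 at day 4 and between 10.04 and 10.17 at day 7. With day 7 replicate 1 left out these counts were 4 lower, 6 lower and 9 higher. Of 16 early neuron genes 7 rose and 1 fell, of 8 neural crest genes 5 rose and 1 fell, and of 8 eye field genes 4 rose and 1 fell. The eye field gene that fell was Hesx1 (12.1-fold), and Six3, Six6 and Otx2 were not called. Hesx1 read 7.75 and 10.12 at day 4 and 5.55 and 5.12 at day 7, with its day 4 replicates far apart. The lists share genes, so their counts are not separate. Pax6 and Lhx2 are neural progenitor and eye field genes here, and Sox2 is in the core pluripotency and neural progenitor lists. Of the primed epiblast genes, Foxd3 is also in the neural crest list, Sox3 in the neural progenitor list and Otx2 in the eye field list. Endoderm, mesoderm, trophoblast and surface ectoderm markers were called higher in 1 of 9, 2 of 8, 1 of 8 and 0 of 4 cases, and lower in 1, 1, 0 and 1. The part of these shifts in the values of the noncoding RNA genes was not tested, and in such mixed aggregates fewer cells of a type and less RNA per cell cannot be told apart.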

How the data were processed

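Values are deposited log2 signals for each probe set. Per the submitters' processing notes they come from RMA in Partek 6.5, and no settings are listed. RMA brings array distributions close to each other, which hides changes common to most genes, and background shrinks differences of dim genes. Array medians lay between 5.68 and 5.77, and replicates correlated across probe sets with r = 0.986 (day 4) and 0.991 (day 7). The number of arrays limits precision.

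Of 41345 probe sets, 23521 named 1 gene, 1814 several and 16010 none here; identifiers of 23328 matched RefSeq (GRCm38.p6), which changed 0 symbols. The 22180 genes were fitted with limma 3.58.1 in R 4.3.3 (lmFit, eBayes, day as the only term, two-sided, Benjamini-Hochberg over all genes, called under 0.05); limma gave every adjusted p-value. The fit was tested on simulated data. The members, lists and tests were chosen with earlier results of these data known. Every member was named; per-array values were given for called members, those fixed by name and uncalled ones singled out, and up to 3 genes each way per list. Alternatives were the replicate block, leaving out each array, other scalings, level filters, variance priors, probe set choices and adjusted p limits of 0.01 and 0.1. Quoted ranges cover 13 alternatives (not the no-prior fit, the every-probe-set fit or the other limits).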

Additional observations from a re-analysis of the deposited data

How the results depend on the processing

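All 14 called members kept their direction under every alternative that included them. Rmst, Pantr1, Platr10 and Platr22 also kept their calls, apart from the fit without a variance prior. The other 10 of 14 called members lost their call in at least 1 of 13 alternatives. Members called higher were 3, and 2 to 3 with 1 array left out. Members called lower were 11, and 3 to 11 with 1 array left out. Platr genes called lower were 7, and 2 to 8 with 1 array left out; Snhg genes called lower were 4, and 1 to 3. Nested small RNA genes called were 4 (0 to 4), neighbouring coding genes 6 (3 to 11) and genes of the context lists 54 (30 to 54). Without a variance prior 0 members were called higher and 0 lower, hence 0 Platr and 0 Snhg genes, with 3 higher and 10 lower at an unadjusted p under 0.05. In the fit on every probe set 5 members were called lower, with 0 Snhg genes, and 2 higher. At an adjusted p under 0.01 4 members were called lower, 4 Platr and 0 Snhg genes, and 2 higher. On genes above the median level 4 Platr genes were called lower, which leaves fewer genes tested. Among uncalled members with differences near 0 the sign turned when 1 array was left out for Platr26 (log2 differences from -0.02 to 0.45), Platr30 (-0.25 to 0.05, and 0.01 with its probe set of lowest mean), Snhg10 (-0.30 to 0.00), Snhg15 (-0.24 to 0.02) and Snhg9 (-0.12 to 0.29). The cause of these changes was not tested.

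The labels give replicate numbers but not that they pair samples. With the replicate number as a block 3 members were called higher and 12 lower; Platr21 lost its call (adjusted p = 0.0525), and Neat1 (0.0204) and Snhg5 (0.0318) gained one. Replicate 1 minus replicate 2 correlated between days with r = 0.186 across all genes and 0.463 across the 36 members, and genes are not independent.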

Other observations

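A list of 34 other named long noncoding RNA genes held 5 that rose and 2 that fell (14.7% and 5.88%, against 6.15% and 4.33% of all genes), with a median difference of 0.04. Mir124-2hg, the host of a neural microRNA gene, read 5.27 and 5.76 at day 4 and 7.92 and 8.04 at day 7 and rose 5.51-fold (limma adjusted p = 0.000555). Emx2os, which lies beside the cortical gene Emx2, read 4.19 and 4.60 against 6.48 and 6.48 (4.24-fold, adjusted p = 0.000737), and Mir99ahg 4.32 and 4.61 against 6.40 and 6.69 (4.23-fold, adjusted p = 0.000739). For Emx2os and Mir99ahg the day 4 mean was below 4.60, the 25th percentile of all genes. The imprinted gene Meg3 fell 1.98-fold (adjusted p = 0.00572) and Firre, a nuclear RNA gene of the X chromosome, 1.68-fold (adjusted p = 0.0277), and both calls were lost without day 7 replicate 1 or day 7 replicate 2.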
